A study of Mus musculus with 8 samples.

Results

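Untreated wild-type (WT) mouse bone marrow (BM) cultures grown toward Langerhans cell (LC)-like cells are described here by their absolute transcript levels. The description rests on the 4 of 8 libraries of the series that came from WT cells without added retinoic acid (RA), chosen by the names of their count columns: WT 1, WT 2 and a pair of columns named Control. In the labels, a line on added RA stands on every library of the series, so that the untreated state rests on titles and column names and on the study's legend. The labels give C57BL6 as the strain and do not give the age of the mice, their number or whether a library pooled animals. In the study's methods, WT control mice were C57BL/6, Rara f/f, or carriers of a CD11c-Cre-GFP transgene, and the labels do not say which were used here. The cultures held GM-CSF at 20 ng/ml and human TGFβ1 at 10 ng/ml in medium with 10% serum, and CD11c+ cells were then enriched with magnetic beads before RNA extraction. Culture lasted 3 days in charcoal-treated serum according to the legend for the RNA-seq, while the labels give a range of 3 to 5 days and either regular or charcoal-treated serum for all libraries alike. The column names carry library numbers that fall into separate stretches of consecutive numbers, WT 1 and WT 2 with the Rara-deficient libraries and the Control pair with the RA-treated ones, and what separates the stretches is not stated. Which Control column is WT 3 and which is WT 4 is not stated, and they are called Control 1 and Control 2.

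LCs are the dendritic cells (DCs) of the epidermis. They are known for langerin (CD207), a lectin that builds Birbeck granules, for the adhesion molecules EpCAM and E-cadherin, and for their dependence on TGFβ signalling and on the transcription factors RUNX3 and ID2. GM-CSF drives BM progenitors toward DC- and macrophage-like cells, and TGFβ1 added to it favours LC features. RA binds the receptor RARα, which acts as a heterodimer with an RXR partner.

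Levels were taken as CPM, the count of a gene set against all gene counts of its library, and levels of different genes were compared only as CPM per kilobase (kb) of exon. A gene was called expressed at 0.5 CPM or more in every one of the 4 libraries and low where it was under 0.5 CPM in every one. Errors are SDs over the 4 libraries unless stated otherwise. The study calls its samples independent, without saying whether they came from separate cultures or animals, so any p-value measures only the spread between these libraries, which may be technical. In bulk RNA, fewer cells of a type and less RNA per cell cannot be told apart.

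The libraries held 43544558 (WT 1), 76077813 (WT 2), 47214273 (Control 1) and 49527916 (Control 2) read pairs on genes. A count of 0 allows up to 0.0689, 0.0394, 0.0635 and 0.0606 CPM in these libraries, taking 3 counts as the limit, for counting error only. The pairs stood apart in the regions where reads fell and in the level of Xist. The share of reads in 3' untranslated regions was 39.0% and 35.8% in WT 1 and WT 2, against 32.1% and 30.8% in the Control libraries, and the intronic share was 3.22% and 3.07%, against 6.004% and 5.41%. Xist, the non-coding RNA of the inactive X chromosome, was at 91.5 and 250 CPM in WT 1 and WT 2, against 0.0212 and 0.0 CPM in the Control libraries. This is no technical measure, since it marks female cells in WT 1 and WT 2 and not in the Control libraries. The study combined data from mice of both sexes, and the part of sex in the pair difference was not tested. The 1120 genes on chromosomes X and Y were left out of every count, rank and list, although they stayed in the library totals. Across the 11298 expressed genes, Pearson's r of log2(CPM + 1) was 0.992 for WT 1 and WT 2 and 0.994 for the Control pair, against 0.972 to 0.975 for libraries of different pairs, as a description across genes that share a library.

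Close to 1 in 2 genes were expressed: 11298 of 23301 (48.5%), with 11257 low and 746 above the limit in some libraries only. No read was counted in any of the 4 libraries for 7151 of the low genes. The RNA was concentrated in few genes, since 127 genes held the first 25% of all counts and 772 genes the first 50%. The pairs did not overlap in 69.2% of expressed genes. The median expressed gene had 11.2 CPM per kb, the 90th percentile was 69.0 and the 99th was 655 CPM per kb.

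The most abundant transcripts were those of antigen presentation by MHC class II and of the endolysosome, together with ferritins, cytoskeletal genes and the translation machinery. Of the 25 genes highest per kb, Cd74 stood first at 13022 ± 2821 CPM per kb. CD74 is the invariant chain that guides MHC class II molecules to the endosome. Lyz2, which codes for the lysozyme of myeloid cells, followed at 10009.5 ± 2451 CPM per kb, and then the class II chains H2-Ab1 (7205 ± 733) and H2-Aa (6715 ± 396). Cst3, the gene of the cathepsin inhibitor cystatin C, came next at 4691 ± 738 CPM per kb. H2-Eb1 had 3367 ± 314 CPM per kb. The 13 measured genes of the MHC class II pathway together took 4.54% and 5.01% of all counts in WT 1 and WT 2, against 4.11% and 3.75% in the Control libraries. The 81 ribosomal protein genes together took 5.63% and 5.22%, against 4.48% and 4.10%.

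**Figure D1:**
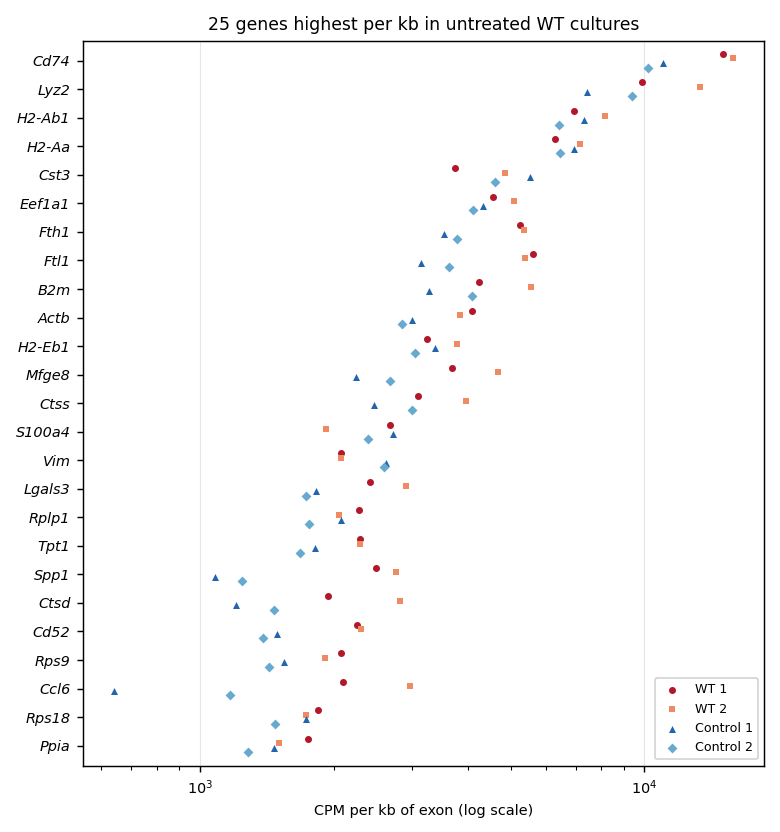
Levels of the 25 genes highest per kb, as CPM per kb of exon on a log axis, 1 point per library (WT 1 and WT 2 red, Control 1 and Control 2 blue). Cd74 and Lyz2 lie rightmost, and the 4 points of Ccl6 spread most, with WT 2 at 2969.9 and Control 1 at 642 CPM per kb.

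The other genes of the first 25 fell into a few groups. Endolysosomal genes were Ctss (3129.6 ± 622 CPM per kb), the cathepsin that trims the invariant chain, and Ctsd (1858 ± 706), an aspartic protease. The iron store was represented by both ferritin chains, Fth1 at 4481 ± 956 and Ftl1 at 4444 ± 1236 CPM per kb. B2m, the light chain of MHC class I, had 4289 ± 943 CPM per kb. Cytoskeletal and motility genes were Actb (3448 ± 613 CPM per kb), Vim (2343 ± 307) and the calcium-binding S100a4 (2427 ± 365). Secreted or surface-bound products were Mfge8 (3325 ± 1094 CPM per kb), which bridges apoptotic cells to phagocytes, the lectin Lgals3 (2219.9 ± 552), osteopontin Spp1 (1894 ± 854), the chemokine Ccl6 (1721 ± 1028) and the small surface protein Cd52 (1858 ± 484). Eef1a1, Tpt1, Rplp1, Rps9, Rps18 and Ppia completed the 25, with 4524 ± 417 CPM per kb for the elongation factor gene Eef1a1. For Eef1a1, Fth1, Ftl1, Ppia and the ribosomal genes, whose pseudogene copies are many, levels are uncertain, because only uniquely mapped reads were counted.

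How even these levels were over the libraries differed from gene to gene. In 13 of the 25 genes the highest library was under 1.5 times the lowest, and in 21 it was under 2 times the lowest. The evenest of those described was H2-Aa, with 6743 and 7651 CPM in WT 1 and WT 2, against 7407 and 6909.9 CPM in the Control libraries. The least even was Ccl6, with 3017 and 4265 CPM in WT 1 and WT 2, against 921 and 1683 CPM in the Control libraries, and the pairs of Ccl6 did not overlap. Spp1 was likewise higher in both WT 1 and WT 2, at 4126 and 4579 CPM, against 1794 and 2065 CPM in the Control libraries. Cd74 had 21230.2 and 22432 CPM in WT 1 and WT 2, against 15599 and 14442 CPM in the Control libraries, again without overlap. The 25 genes held 12.7% and 14.4% of all counts in WT 1 and WT 2, against 10.2% and 10.4% in the Control libraries.

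Promoter sequences of 2 class II genes of the first 25 are shown because their Y box, the site bound by the NF-Y complex in MHC promoters, can be read in them. The windows are from RefSeq (GRCm38.p6) and run from 250 bases before to 50 bases after the start of the gene, written 5′ to 3′ on the strand of the gene. Capitals mark matches to CTGATTGG on either strand. The match starts 51 bases before the start in H2-Aa (chr17:34287774-34288073, minus strand) and 62 bases before it in H2-Eb1 (chr17:34305617-34305916, plus strand).
H2-Aa: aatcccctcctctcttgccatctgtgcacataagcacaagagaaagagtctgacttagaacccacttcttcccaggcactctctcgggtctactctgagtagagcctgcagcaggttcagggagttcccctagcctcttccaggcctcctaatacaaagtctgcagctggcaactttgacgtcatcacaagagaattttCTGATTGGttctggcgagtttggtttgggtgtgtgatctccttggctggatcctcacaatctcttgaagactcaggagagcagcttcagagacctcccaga
H2-Eb1: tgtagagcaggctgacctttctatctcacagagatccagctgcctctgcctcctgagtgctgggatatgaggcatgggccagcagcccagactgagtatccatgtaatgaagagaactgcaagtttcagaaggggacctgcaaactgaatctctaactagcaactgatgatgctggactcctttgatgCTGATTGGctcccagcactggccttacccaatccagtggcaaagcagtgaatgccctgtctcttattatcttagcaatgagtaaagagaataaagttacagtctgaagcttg
A match stood in 9 of the 22 windows found for the MHC class I and II genes listed (40.9%), those of Canx, H2-Aa, H2-D1, H2-Eb1, H2-Eb2, H2-K1, H2-Oa, Psmb9 and Tap1. The share was 4.31% over 27025 windows with 1 per gene, 6.04% over expressed genes and 3.66% over low genes. For the 25 genes highest per kb it was 4 of the 20 windows found (20%). A match is a description and not a measured binding site. Genes with a match included H2-Aa at 6715 ± 396 CPM per kb and H2-Eb2, a little-used class II beta gene, at 1.07 ± 0.787 CPM per kb. Whether the level goes with a match was not tested.

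Beyond these, the class II pathway was expressed in full (13 of 13 measured genes). The peptide exchange factors H2-DMa, H2-DMb1 and H2-DMb2 had 617 ± 52.8, 554 ± 29.2 and 506 ± 160.0 CPM per kb, and Ifi30, a lysosomal thiol reductase, had 983 ± 87.4. The DM inhibitors were lower, with H2-Oa at 43.8 ± 16.9 and H2-Ob at 32.9 ± 18.6 CPM per kb. Ciita, the master coactivator of class II genes, had 198 and 289 CPM in WT 1 and WT 2, against 429.9 and 448 CPM in the Control libraries. Both Control libraries lay above both others for Ciita, while Cd74 and H2-Ob (113 and 145 CPM, against 43.1 and 49.8 CPM) lay the other way round. All 13 measured genes of the class I pathway were expressed as well, with H2-K1 at 851 ± 201 CPM per kb, Calr at 661 ± 92.2 and Tap1 at 79.8 ± 7.98. Class I heavy chain genes resemble each other in sequence, so that their levels rest on reads that mapped to a single one of them.

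LC markers were present with a single exception. Of 8 listed LC markers, 7 were expressed, and the median over all 8 was 63.4 CPM per kb. Cdh1 (E-cadherin) was the evenest, with 1599 and 1521 CPM in WT 1 and WT 2, against 1698 and 1649.6 CPM in the Control libraries. Epcam had 383 and 355 CPM in WT 1 and WT 2, against 525 and 473 CPM in the Control libraries. Cd24a, a surface glycoprotein of LCs and other myeloid cells, was the highest per kb of the list at 459.9 ± 129 CPM per kb, and Hepacam2 had 91.4 ± 17.2. Cd207 itself had 18.5 and 19.5 CPM in WT 1 and WT 2, against 75.7 and 104 CPM in the Control libraries. Both Control libraries lay well above both others, which themselves stood close together. Ly75, the endocytic receptor DEC-205, showed the same order, with 38.1 and 53.3 CPM in WT 1 and WT 2, against 110.3 and 126 CPM in the Control libraries. Cxadr, an adhesion molecule of the list, was at 0.276 and 0.237 CPM in WT 1 and WT 2, against 0.318 and 0.303 CPM in the Control libraries, and so counted as low in all 4. Per kb, Epcam exceeded Cd207 by 15.3 and 13.5 times in WT 1 and WT 2, against 5.15 and 3.39 times in the Control libraries.

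The promoter window of Cd207 (chr6:83677808-83678107, minus strand) is shown because it carries the AP-1 letters TGANTCA once, in capitals, beginning 7 bases before the start. The window of Lyz2 (chr10:117282223-117282522, minus strand), the myeloid gene second in the list, carries the PU.1 letters AGGAAGT once on the opposite strand, so that the capitals read ACTTCCT, 100 bases before the start.
Cd207: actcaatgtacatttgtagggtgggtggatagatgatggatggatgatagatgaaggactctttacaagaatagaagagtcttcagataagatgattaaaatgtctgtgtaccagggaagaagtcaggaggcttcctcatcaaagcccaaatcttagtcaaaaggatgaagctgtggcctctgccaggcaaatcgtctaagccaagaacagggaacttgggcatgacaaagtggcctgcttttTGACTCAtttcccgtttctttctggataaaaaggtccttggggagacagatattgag
Lyz2: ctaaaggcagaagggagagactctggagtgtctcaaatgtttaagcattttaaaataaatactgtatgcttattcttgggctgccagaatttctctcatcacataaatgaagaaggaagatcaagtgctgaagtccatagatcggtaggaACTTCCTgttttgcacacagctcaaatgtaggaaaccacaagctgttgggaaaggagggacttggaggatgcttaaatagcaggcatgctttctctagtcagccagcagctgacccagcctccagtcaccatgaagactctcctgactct
Searched on both strands, TGANTCA stood in 7.93% of all windows, in 4.87% of those of expressed genes and in 10.6% of those of low genes. It stood in 0 of the 20 windows found for the 25 genes highest per kb. AGGAAGT stood in 9.57% of all windows, in 9.64% of those of expressed genes and in 9.07% of those of low genes. It stood in 5 of the 20 windows found for the 25 genes highest per kb, namely Ccl6, Ctss, Lyz2, S100a4 and Spp1.

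Markers shared by DCs spread over a wide range of levels. All 10 listed were expressed, and 5 of them, Cd74, H2-Ab1, H2-Aa, H2-Eb1 and Cst3, were among the first 25 genes. The median over all 10, 1830 CPM per kb, fell in a wide gap between H2-Eb1 (3367) and Itgax (293). Of the 10, 7 lay above the median expressed gene (11.2 CPM per kb), while Flt3, Zbtb46 and Dpp4 lay below it. Itgax, the gene of the CD11c on which the cells were enriched, had 1057 and 1292 CPM in WT 1 and WT 2, against 1172 and 1201 CPM in the Control libraries, and is no independent sign of identity. Flt3, the receptor of the DC growth factor FLT3L, was at 4.503 ± 1.95 CPM per kb and Dpp4 at 1.59 ± 0.354. Zbtb46, a factor of conventional DCs (cDCs), was at 2.81 ± 1.58 CPM per kb. It had 5.97 and 4.298 CPM in WT 1 and WT 2, against 15.8 and 11.4 CPM in the Control libraries.

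Genes of cDC subsets gave a mixed picture. For cDC2, 7 of 9 markers were expressed, led by Sirpa at 247 ± 13.5 CPM per kb, an inhibitory receptor, and followed by the lectin Mgl2 (79.9 ± 51.05), Itgam (61.3 ± 20.4, CD11b) and Irf4 (26.1 ± 2.37). Mgl2 was highest in Control 1, with 78.7 and 74.7 CPM in WT 1 and WT 2, against 241 and 101 CPM in Control 1 and Control 2. Clec4a4 and Esam were low. For cDC1, 8 of 10 markers passed the limit but the median over all 10 was 2.35 CPM per kb. The higher members were Irf8 (53.8 ± 10.6 CPM per kb), Itgae (52.1 ± 12.6), Wdfy4 (20.2 ± 2.91) and Batf3 (6.71 ± 0.318). Irf8 and Itgae are also used by other myeloid cells. Xcr1, the chemokine receptor that defines cDC1, was at 0.0 and 0.092 CPM in WT 1 and WT 2, against 0.169 and 0.04 CPM in the Control libraries, and Clec9a, a receptor for dead cells on cDC1, at 4.96 and 7.400 CPM, against 5.04 and 6.38 CPM.

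Markers of plasmacytoid DCs (pDCs) had a median of 3.70 CPM per kb over all 8 listed, of which 7 were expressed. Bst2, which is also interferon-induced, was the highest at 308 ± 60.2 CPM per kb. Siglech, a lectin restricted to pDCs and some macrophages, had 8.27 and 5.902 CPM in WT 1 and WT 2, against 22.9 and 63.4 CPM in Control 1 and Control 2. Ccr9 was at 2.64 and 1.63 CPM, against 6.76 and 20.6 CPM, and Ly6d at 11.3 and 4.63 CPM, against 18.2 and 48.2 CPM. All 3 were highest in Control 2, as were Spib (3.63 and 1.39 CPM, against 4.300 and 11.1 CPM) and the CD8 genes Cd8a (2.78 and 0.9595 CPM, against 5.61 and 16.4 CPM) and Cd8b1 (3.24 and 1.42 CPM, against 7.94 and 21.04 CPM).

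Genes of mature or migratory DCs were expressed in 14 of 15 cases, and the median over all 15 was 34.1 CPM per kb. The chemokine Ccl17 led at 1369 ± 259 CPM per kb, ahead of Ccl22 (213 ± 113), Marcksl1 (206 ± 52.6) and Ccr7 (50.2 ± 21.3). Ccr7, which directs DCs to lymph nodes, had 52.02 and 75.7 CPM in WT 1 and WT 2, against 128 and 141 CPM in the Control libraries. Ccl22, a ligand of CCR4, had 241 and 178 CPM in WT 1 and WT 2, against 554 and 567 CPM in the Control libraries. For both genes the Control libraries lay above the others without overlap. The costimulatory genes Cd80 (71.1 and 74.2 CPM, against 69.4 and 73.2 CPM) and Cd86 (69.9 and 78.3 CPM, against 91.4 and 106 CPM) were closer between the pairs. Il12b, a cytokine of activated DCs, was at 0.804 and 0.342 CPM in WT 1 and WT 2, against 1.16 and 1.41 CPM in the Control libraries.

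Some monocyte and macrophage genes were also abundant. All 11 monocyte markers passed the limit, but their median was 3.62 CPM per kb, and only 5 lay above the median expressed gene. The highest were Ly6c2 at 358 ± 66.5 and Csf1r, the receptor of M-CSF, at 354 ± 44.7 CPM per kb. Ccr2, which brings monocytes from the BM, had 243 and 207 CPM in WT 1 and WT 2, against 96.96 and 104 CPM in the Control libraries. Of 15 macrophage markers, 13 were expressed, led by Cd68 (329 ± 59.7 CPM per kb), Adgre1 (217 ± 39.9, F4/80), Trem2 (108 ± 53.4) and Gpnmb (76.3 ± 62.8). Gpnmb, a lysosomal glycoprotein, was uneven, with 183 and 633 CPM in WT 1 and WT 2, against 90.6 and 252 CPM in Control 1 and Control 2. Timd4 and Cd163, receptors of resident macrophages, were low. Genes that GM-CSF and TGFβ maintain in alveolar macrophages were expressed in 9 of 11 cases. Plet1 had 929 ± 73.6 CPM per kb and was even, with 1568 and 1649.7 CPM in WT 1 and WT 2, against 1881 and 1759.9 CPM in the Control libraries. Fabp5, Chil3 and Car4 had 485 ± 95.8, 265 ± 92.9 and 138 ± 72.6 CPM per kb. Pparg, the nuclear receptor required by alveolar macrophages, had 36.1 and 40.6 CPM in WT 1 and WT 2, against 25.9 and 30.4 CPM in the Control libraries.

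Markers of granulocytes were present at levels that varied between libraries. The alarmins S100a9 and S100a8 led at 1213 ± 809 and 1123 ± 563 CPM per kb. S100a9 had 1248 and 296 CPM in WT 1 and WT 2, against 424 and 575 CPM in Control 1 and Control 2. Ltf (lactoferrin) had 228 and 18.4 CPM, against 39.5 and 69.4 CPM, and Camp, an antimicrobial peptide of secondary granules, 43.7 and 2.73 CPM, against 10.3 and 16.2 CPM. These 3 genes were highest in WT 1 and lowest in WT 2, so that the pairs overlapped. The 14 markers together summed to 2951 and 1042 CPM in WT 1 and WT 2, against 1199 and 1616 CPM in the Control libraries. The azurophil granule genes Elane and Mpo of early precursors were higher in both Control libraries. Elane was at 2.76 and 0.394 CPM in WT 1 and WT 2, against 11.6 and 12.4 CPM, and Mpo at 1.68 and 0.618 CPM, against 8.22 and 9.09 CPM. Eosinophil genes were scarce, and only Alox15 of 7 passed the limit in all 4 libraries (3 without Control 1). Epx, eosinophil peroxidase, had 11.5 and 22.3 CPM in WT 1 and WT 2, against 0.297 and 2.52 CPM in Control 1 and Control 2, and Prg2 8.82 and 10.2 CPM, against 0.402 and 2.62 CPM. For mast cells and basophils 4 of 12 markers were expressed. Gata2 and Kit, which early progenitors use as well, had 12.7 ± 6.69 and 12.1 ± 3.95 CPM per kb, whereas Fcer1a, Tpsb2, Tpsab1, Mcpt4, Cma1, Prss34 and Ms4a2 reached no more than 0.565 CPM in any library, the value of Ms4a2 in Control 2.

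**Figure D2:**
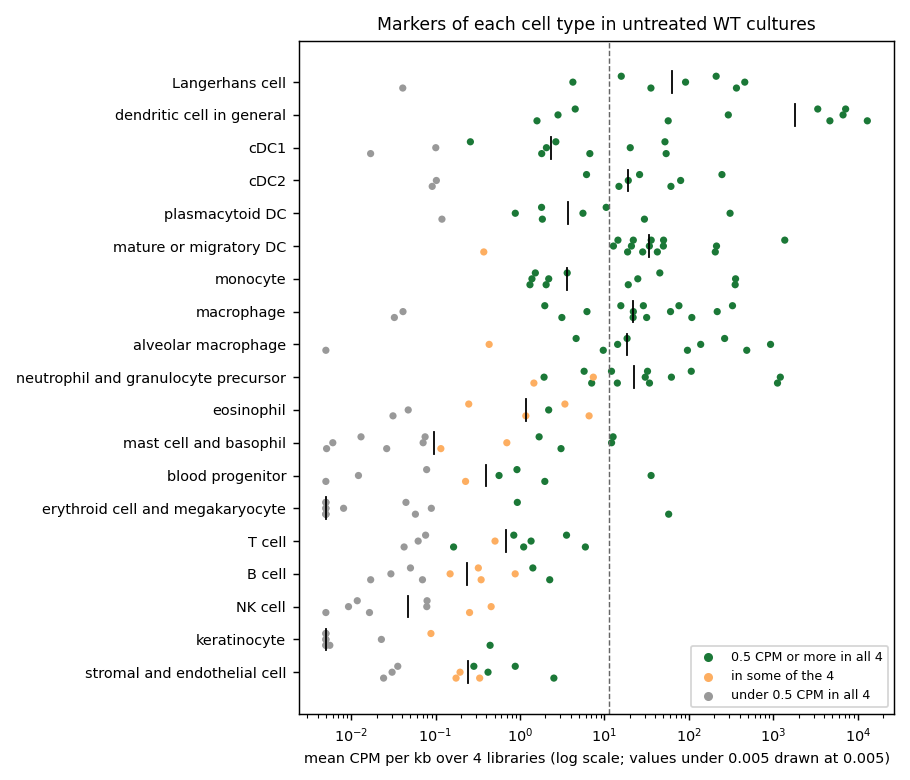
Mean CPM per kb over the 4 libraries (log axis) of each marker, 1 row per cell type, coloured by whether the gene reached 0.5 CPM in all, some or none of the libraries; black bars are medians over all members of a list and the dashed line is the median expressed gene (11.2 CPM per kb). Markers of DCs in general have the highest median, 1830 CPM per kb, and most markers of lymphocytes and keratinocytes lie left of 1 CPM per kb.

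Markers of other lineages were low or absent for the most part, and in the lists of T, B and NK cells, keratinocytes, erythroid, progenitor and stromal cells only Pf4 and Cd34 lay above the median expressed gene per kb. No NK cell marker of 8 was expressed (1 without WT 2), and Ncr1, Prf1, Eomes, Gzma, Klra8 and Klre1 were low in all 4 libraries. Of 10 keratinocyte markers, Krt10 alone passed (2 genes without Control 1), at 1.33 and 0.7098 CPM in WT 1 and WT 2, against 0.784 and 0.868 CPM in the Control libraries. Krt14, Krt5, Krt15, Trp63, Dsg3 and Lor were listed at 0 in every library. For B cells, Cd22 and Cd79b passed of 10. Pax5, a defining B cell factor, Ebf1, Vpreb3 and Igll1 were low. The T cell list had 6 of 10 members above the limit. These were Cd8b1 (5.94 ± 6.25 CPM per kb), Thy1 (3.55 ± 2.36), Lck (1.35 ± 0.2997), Lat (1.103 ± 0.439), Cd4 (0.843 ± 0.611) and Cd28 (0.163 ± 0.069). Cd3e and Cd3g, subunits of the T cell receptor complex, and the kinase gene Zap70 were low, and Cd3d passed in some libraries only. Of the erythroid and megakaryocyte list, Pf4 (57.6 ± 10.5 CPM per kb), which myeloid cells also make, and Itga2b passed. Klf1, Epor, Car1 and Gp9 were low, and the 6 listed globin genes were at 0, which is uncertain because near-identical copies share their reads. Among stromal and endothelial markers 4 of 10 passed, all under 3 CPM per kb, the highest being Kdr at 2.52 ± 1.74; Dcn, Pdgfra and Cxcl12 were low. Of 8 blood progenitor genes, 4 were expressed, with Cd34 at 35.7 ± 7.77 CPM per kb, Sox4 at 1.97 ± 0.483, Myb at 0.919 ± 0.329 and Meis1 at 0.563 ± 0.109, while Mecom, Hlf and Hoxa9 were low and Gfi1b passed in some libraries only.

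Receptors for both cytokines of the culture were expressed. The GM-CSF receptor chains Csf2rb and Csf2ra had 443 ± 60.1 and 189 ± 41.8 CPM per kb. Csf2rb had 1741 and 2200.5 CPM in WT 1 and WT 2, against 2080.4 and 2427 CPM in the Control libraries, and the pairs overlapped. Csf2rb and its copy Csf2rb2 (275 ± 34.3 CPM per kb) are near-identical, so the split between them is uncertain. For TGFβ, the type I receptor Tgfbr1 had 362 and 337 CPM in WT 1 and WT 2, against 614 and 579 CPM in the Control libraries, and the type II receptor Tgfbr2 101 and 126 CPM, against 111 and 141 CPM. Tgfbr1 exceeded Tgfbr2 per kb in all 4 libraries, by 3.03 and 2.26 times in WT 1 and WT 2, against 4.66 and 3.47 times in the Control libraries. The BMP type I receptors Bmpr1a (0.451 ± 0.101 CPM per kb) and Acvr1 (6.51 ± 1.08) were far lower, and Bmpr1b was listed at 0. Of the 38 cytokine and growth factor receptors measured, 36 were expressed. Il12rb1 was low. Axl, a receptor tyrosine kinase for apoptotic cells that TGFβ induces in LCs, had 150.0 ± 31.1 CPM per kb, against 6.204 ± 2.58 for Mertk and 0.462 ± 0.155 for Tyro3 of the same family. Ifngr1, Il1r2, Tnfrsf1a and Il10rb were among the steadiest, and Il1r2, a decoy receptor of IL-1, had 92.4 and 90.9 CPM in WT 1 and WT 2, against 89.3 and 90.2 CPM in the Control libraries. Csf3r, the G-CSF receptor of granulocytes, had 93.7 and 92.8 CPM, against 177 and 189 CPM.

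Chemoattractant receptors were selective, with 18 of 30 expressed. Ccr1, which binds inflammatory CC chemokines, was the highest at 129.6 ± 19.9 CPM per kb, and the formyl peptide receptor Fpr2 had 69.5 ± 16.8 and Ccr7 50.2 ± 21.3. Ccr6, the receptor for CCL20 used by LC precursors to enter the epidermis, was at 0.643 and 3.22 CPM in WT 1 and WT 2, against 0.593 and 0.787 CPM in the Control libraries, with WT 2 above the others. Cx3cr1, the fractalkine receptor, had 4.800 and 5.600 CPM, against 4.34 and 4.93 CPM. Ccr8, Ccr10, Cxcr5, Cxcr6, Xcr1 and the 4 atypical receptors Ackr1 to Ackr4 were low in all 4 libraries.

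Pattern recognition receptors were expressed in 24 of 24 cases, with Tlr2 the highest at 220.0 ± 48.1 CPM per kb. Tlr4, the endotoxin receptor, had 28.7 ± 6.17 CPM per kb and its partner Ly96 8.43 ± 0.186, while the receptors of nucleic acids Tlr3 and Tlr9 had 2.65 ± 0.234 and 5.39 ± 1.99. Of 26 C-type lectins, 21 were expressed. Clec4n (dectin-2) had 1307 ± 67.8 CPM per kb and was even, with 1618 and 1511 CPM in WT 1 and WT 2, against 1686 and 1694 CPM in the Control libraries. Clec7a (dectin-1), the receptor of fungal β-glucan, had 854 and 841 CPM, against 1508 and 1628 CPM, higher in both Control libraries. All 25 measured Fc, TREM, SIGLEC and inhibitory receptors were expressed, and the signalling adaptors Tyrobp and Fcer1g led them at 1175 ± 83.97 and 939 ± 193 CPM per kb. The inhibitory receptors Lilrb4a (655 ± 79.6 CPM per kb) and Fcgr2b (612 ± 18.1) followed. Fcgr2b was among the steadiest of all receptors, with 968 and 942 CPM in WT 1 and WT 2, against 969 and 909 CPM in the Control libraries. Integrins of leukocytes were high, with Itgb2 at 325 ± 31.6 CPM per kb, whereas the epithelial integrins Itgb4, Itgb6 and Itgb8 stayed under 1 CPM per kb. The tetraspanins Cd9 and Cd63 had 969 ± 213 and 385 ± 109 CPM per kb. Among costimulatory and checkpoint ligands 14 of 16 were expressed, led by Cd48 (165 ± 7.47 CPM per kb), and Cd70 and Tnfsf18 were low. Cd274 (PD-L1) had 71.6 and 96.8 CPM in WT 1 and WT 2, against 117 and 157 CPM in the Control libraries, and Cd276 (B7-H3) 6.15 and 5.56 CPM, against 20.8 and 18.6 CPM. The receptor lists together also hold ligands, signalling adaptors, tetraspanins and adhesion molecules. Over all 207 of their genes measured, 178 were expressed, and the median of those expressed was 23.5 CPM per kb. In the order of mean CPM per kb, Cd52 and Clec4n differed by more than their SDs and without overlap. The gaps between the neighbours Tyrobp and Cd9, and Cd9 and Fcer1g, were within the larger SD.

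**Figure D3:**
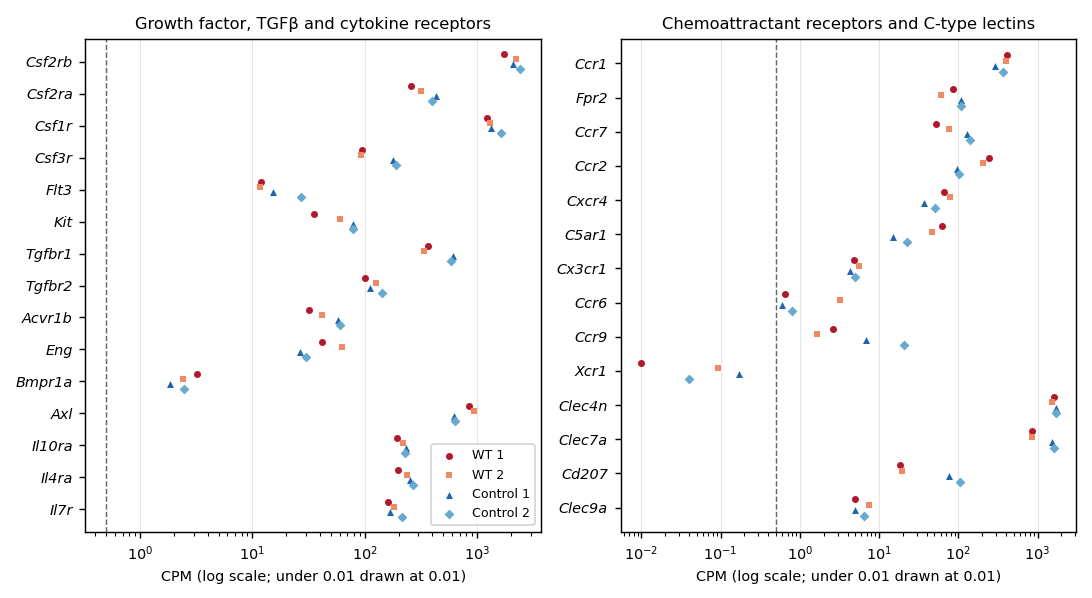
CPM in each library (log axis) of 15 growth factor, TGFβ and cytokine receptors (left) and 14 chemoattractant receptors and lectins (right), WT 1 and WT 2 in red and the Control pair in blue; the dashed line marks 0.5 CPM. Csf2rb and Csf1r lie above 1000 CPM in all libraries, and Cd207 shows the pairs apart at 18.5 and 19.5 CPM in WT 1 and WT 2, against 75.7 and 104 CPM in the Control libraries.

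Transcription factors of the myeloid and DC lineages were expressed nearly in full (22 of 23 fate factors of DCs and LCs). Of 209 factors measured, 161 were expressed and 39 were low, and the median of those expressed was 14.4 CPM per kb. Id2, the inhibitor of E proteins required for LCs, was the highest at 352 ± 49.9 CPM per kb. It had 539.8 and 428 CPM in WT 1 and WT 2, against 430.2 and 394 CPM in the Control libraries, with WT 1 above the rest and WT 2 inside the range of the Control pair. Spi1 (PU.1), the myeloid master factor, followed at 246 ± 14.8 CPM per kb, and Xbp1 (231 ± 38.2), Irf5 (169 ± 5.87) and Atf4 (161 ± 14.7) came next. Id2 differed from Spi1 by more than the SDs, and so did Xbp1 from Irf5. The gaps between Spi1 and Xbp1, Irf5 and Atf4, and Atf4 and Bhlhe40 were within them.

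Runx3 and Cebpb were the study's factors of interest for LC fate. Runx3 had 131 and 129 CPM in WT 1 and WT 2, against 143 and 152 CPM in the Control libraries. It was steadier than Cebpb, although its library pairs did not overlap either, as in 69.2% of expressed genes. Cebpb, a factor of macrophages and granulocytes, had 114 and 108 CPM in WT 1 and WT 2, against 76.97 and 78.3 CPM in the Control libraries, higher in WT 1 and WT 2 without overlap. Per kb, Runx3 had 35.7 ± 2.79 and Runx1 23.9 ± 1.92 CPM, and Runx3 exceeded Runx1 by 1.51 and 1.28 times in WT 1 and WT 2, against 1.66 and 1.55 times in the Control libraries. Their partner Cbfb had 78.8 ± 12.5 CPM per kb. Cebpa, needed for granulocyte-monocyte progenitors, had 68.00 ± 12.8 CPM per kb, and Cebpb 62.1 ± 12.8. Among other fate factors, Irf8 and Irf4, Klf4 (19.2 ± 3.74 CPM per kb) and Ahr (14.6 ± 3.09), the xenobiotic sensor known for its role in LCs, were all expressed. Maf, a factor of macrophages, had 0.324 ± 0.218 CPM per kb and was under 0.5 CPM in Control 1.

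Nuclear receptors split into expressed and absent members (23 expressed and 21 low of 45). Rara had 104 and 126 CPM in WT 1 and WT 2, against 123 and 132 CPM in the Control libraries, and the pairs overlapped. Rarg had 27.7 and 30.4 CPM, against 17.9 and 17.9 CPM, and Rarb, itself a target of RA in many cells, 0.069 and 0.039 CPM, against 0.042 and 0.04 CPM, at or under the limit that a count of 0 allows. Rara exceeded Rarg per kb in every library, by 3.09 and 3.40 times in WT 1 and WT 2, against 5.65 and 6.05 times in the Control libraries. Rxra, the partner of the RARs, was the highest nuclear receptor at 65.7 ± 13.7 CPM per kb, Rxrb had 19.2 ± 1.57, and Rxrg was listed at 0. Nr1h2 (38.5 ± 2.500 CPM per kb), an oxysterol receptor, and Vdr (20.5 ± 6.85), the vitamin D receptor, were the highest of the others apart from Rara. Ppara, Esr2, Pgr, Nr2f1, Nr2f2, Nr5a1, Nr5a2, Hnf4a and Hnf4g were among the 21 low members.

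Genes that make, bind or degrade RA were mostly silent. Only 5 of 17 were expressed. The retinaldehyde reductases Rdh11 (20.5 ± 1.51 CPM per kb) and Dhrs3 (14.03 ± 10.4) and the retinol dehydrogenases Dhrs9 (9.01 ± 5.08) and Rdh10 (2.67 ± 0.407) were present. Aldh1a2, an enzyme that makes RA, had 2.32 and 2.25 CPM in WT 1 and WT 2, against 0.868 and 1.11 CPM in the Control libraries. Aldh1a1 and Aldh1a3, the other RA-making enzymes, were low, as were Cyp26a1, Cyp26c1, Crabp1, Crabp2, Rbp4, Stra6, Lrat and Bco1. Dhrs3, an enzyme that RA induces in many cells, had 38.99 and 43.6 CPM in WT 1 and WT 2, against 7.73 and 10.5 CPM in the Control libraries. Cyp26b1, which degrades RA, had 0.459 and 0.723 CPM, against 3.33 and 3.15 CPM, and Dhrs9 11.4 and 16.4 CPM, against 43.02 and 30.7 CPM. For none of them did the pairs overlap, with Dhrs3 higher in WT 1 and WT 2 and both others lower.

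**Figure D4:**
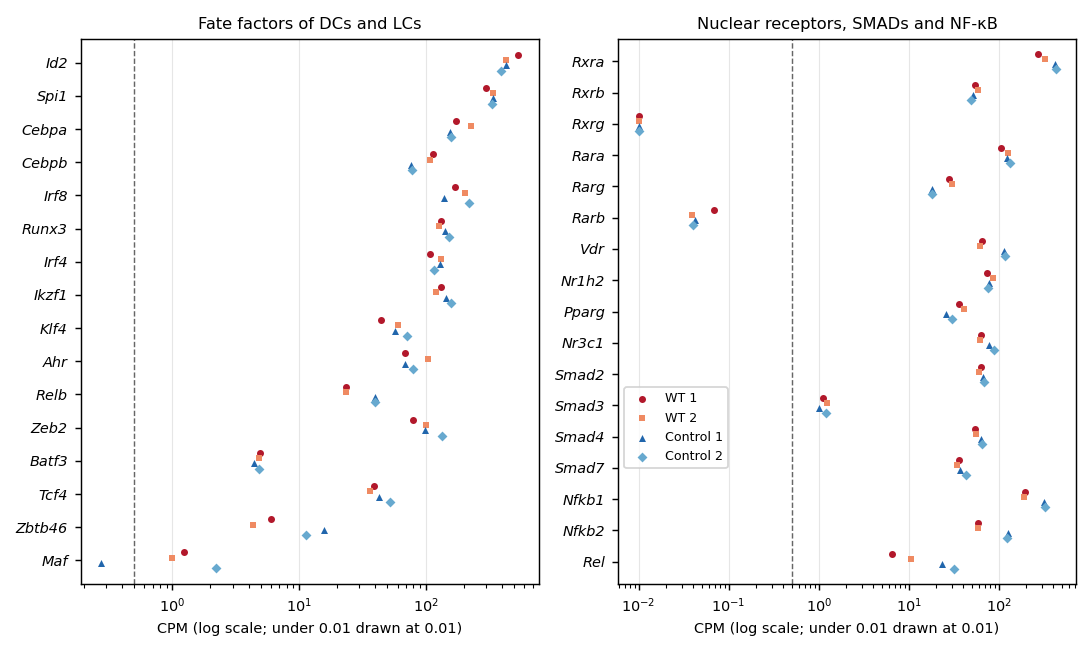
CPM in each library (log axis) of 16 fate factors of DCs and LCs (left) and 17 nuclear receptors, SMADs and NF-κB genes (right), WT 1 and WT 2 in red and the Control pair in blue; the dashed line marks 0.5 CPM. Smad3 lies near 1 CPM beside Smad2 near 60, Rarb lies left of the dashed line, and Rel separates the pairs.

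Within the TGFβ response, 11 of 12 factors were expressed. In 9 of them the highest library was under 1.5 times the lowest, beside 64.8% of all expressed genes. Smad2 had 62.5 and 60.6 CPM in WT 1 and WT 2, against 65.7 and 67.98 CPM in the Control libraries. Smad4, the partner shared by all receptor SMADs, had 53.8 and 56.1 CPM, against 62.6 and 65.2 CPM. Smad3, the other receptor SMAD of the TGFβ branch, was far lower in every library, with 1.13 and 1.22 CPM in WT 1 and WT 2, against 1.02 and 1.19 CPM in the Control libraries. Per kb, Smad2 exceeded Smad3 by 30.9 and 27.6 times in WT 1 and WT 2, against 36.0 and 31.8 times in the Control libraries. The inhibitors Ski (47.1 ± 2.67 CPM per kb), Skil (23.3 ± 3.23) and Smad7 (8.45 ± 0.831) were all present, and Smad9 was listed at 0. Id1 and Id3, targets of BMP signals, had 76.5 ± 6.54 and 35.1 ± 1.69 CPM per kb.

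Stress- and signal-induced factors were less even. Egr1, an immediate early gene, had 129.5 and 90.4 CPM in WT 1 and WT 2, against 134 and 464 CPM in Control 1 and Control 2, and Fos had 68.7 and 48.1 CPM, against 149.7 and 287 CPM. Both were highest in Control 2. Of the NF-κB genes, all 6 were expressed. Nfkb2 had 59.04 and 58.97 CPM in WT 1 and WT 2, against 124 and 123 CPM in the Control libraries, Rel 6.499 and 10.5 CPM, against 23.4 and 31.6 CPM, and Rela 85.02 and 86.3 CPM, against 91.01 and 91.2 CPM. The Control libraries were above the others for Nfkb2 and Rel and nearly level with them for Rela. Among factors of the interferon and cytokine response, 15 of 16 IRF and STAT genes were expressed. In 11 of them the highest library was under 1.5 times the lowest, a share close to the 64.8% of all expressed genes. Irf5 had 399.8 and 403 CPM in WT 1 and WT 2, against 425 and 392 CPM in the Control libraries, and the pairs overlapped. Factors of other lineages were low, among them Gata4, Gata6, Klf1, Bcl11b, Zbtb16, Snai2, Ehf, Elf3, Elf5 and Mycn.

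Secreted products were led by Spp1, Ccl6, Ccl17, Cxcl16 (253 ± 10.5 CPM per kb) and Ccl9 (229.7 ± 99.7), with 24 of 38 genes expressed. Tgfb1 itself had 128 ± 19.9 CPM per kb, Tnf 137 ± 51.96 and the IL-1 inhibitor Il1rn 109.9 ± 10.2. Il1b had 70.1 and 40.1 CPM in WT 1 and WT 2, against 249 and 241 CPM in the Control libraries, and Cxcl2, a neutrophil chemoattractant, 13.1 and 6.45 CPM, against 52.9 and 64.1 CPM. Csf2, the gene of the GM-CSF supplied to the culture, was listed at 0, and Il10 reached 0.042 CPM at most, in Control 1. Il6, a cytokine of activated DCs, had 0.299 and 0.289 CPM in WT 1 and WT 2, against 0.741 and 0.929 CPM in the Control libraries, and Il23a 0.161 and 0.197 CPM, against 0.191 and 0.242 CPM. All 20 cell cycle genes were expressed, at a median of 54.4 CPM per kb. Mki67 had 207 and 164 CPM in WT 1 and WT 2, against 347 and 241 CPM in the Control libraries, and Pcna 324 and 232 CPM, against 295 and 257 CPM. The pairs overlapped for Pcna and not for Mki67. Of the glycolysis list 12 of 13 were expressed, and Gapdh had 1617 and 1586 CPM, against 1729 and 1613 CPM. Eno1 was listed at 0.413 and 0.539 CPM, against 0.995 and 0.828 CPM, which is uncertain because near-identical copies share its reads. Lipid genes besides Mfge8 were Plin2 (310.0 ± 86.9 CPM per kb), a lipid droplet coat protein, Scd2 (250.2 ± 49.4) and Lpl (131 ± 36.1).

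The steadiness of each level over the pairs was then tested. The highest library was under 1.5 times the lowest for 7317 expressed genes (64.8%) and under 2 times for 9905 (87.7%). It was under 1.5 times for 72 of the 178 expressed genes of the receptor lists and 96 of the 161 expressed transcription factors. Of expressed LC markers 2 of 7 were under 1.5 times, and of expressed macrophage markers 0 of 13. The median ratio of the higher over the lower library was 1.12 within WT 1 and WT 2 and 1.08 within the Control pair, against 1.22 between the means of the pairs. With edgeR's quasi-likelihood test on the counts, 3136 of 11779 genes tested (26.6%) were called at a Benjamini-Hochberg adjusted p under 0.05, of which 1444 (12.3%) were higher and 1692 (14.4%) lower in WT 1 and WT 2 than in the Control pair. Of these, 689 differed by 2-fold or more. With library totals in place of TMM scaling, the median log2 fold change of all genes shifted to -0.11, and 963 genes were higher and 2486 lower. Log2 fold changes are given as WT 1 and WT 2 over Control with their standard errors (SE). An exact permutation test of a single gene, 2 libraries against 2, cannot go below p = 0.333, so that the calls rest on the spread shared across genes. The pair coincides with the stretch of library numbers, so that the pair and whatever else differed between the stretches cannot be told apart. The shares of 3' untranslated and intronic reads and the level of Xist moved with the pair, and their part in the difference was not tested.

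The difference moved with exon length. Genes were split by exon length into 5 groups of equal size. In the group of the shortest genes (60 to 1600 bases) 676 were higher and 72 lower in WT 1 and WT 2, with a median log2 fold change of 0.28. In the group of the longest genes (4762 bases or more) 77 were higher and 859 lower, with a median of -0.30. After a smooth trend on exon length was taken out of each library, an alternative added after seeing the data, 1472 genes were called (730 higher, 6.20%, and 742 lower, 6.30%), of which 1227 were shared with the 3136 in the same direction. Leaving out Control 1 or Control 2 also lowered the count, to 1392 and 1182 genes, whereas leaving out WT 1 or WT 2 gave 3377 and 3598.

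**Figure D5:**
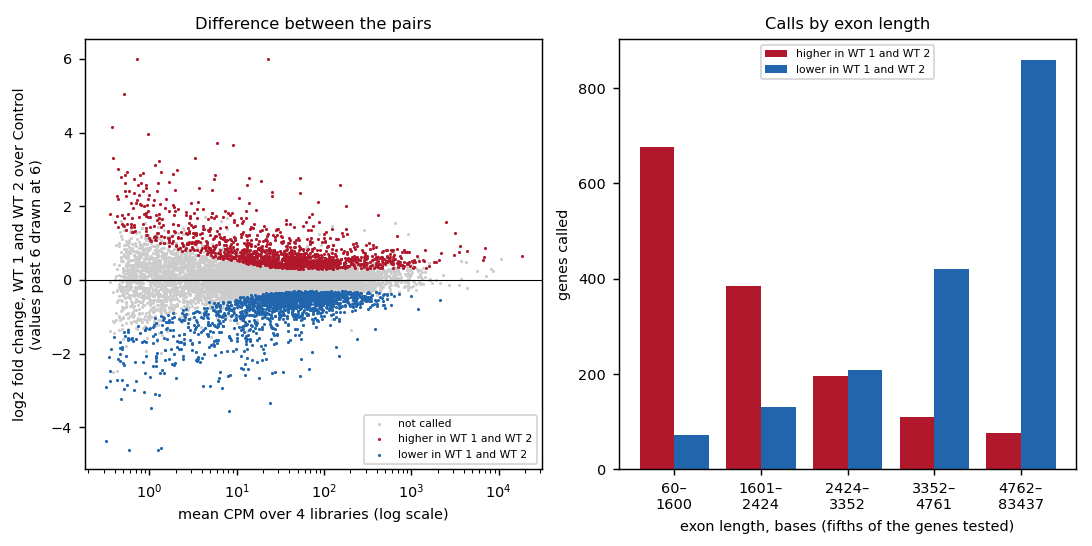
Left, log2 fold change of WT 1 and WT 2 over the Control pair against mean CPM (log axis) for the 11779 genes tested, with genes called higher in red and lower in blue. Right, numbers of genes called higher (red) and lower (blue) in 5 groups of genes of rising exon length; 676 were higher in the group of the shortest genes, and 859 lower in that of the longest.

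Identity genes shared this difference in part. Cd207 was lower in WT 1 and WT 2 than in the Control pair (log2 fold change -2.14 ± 0.166 (SE), adjusted p = 0.0041, edgeR), as was Ly75 (log2 fold change -1.26 ± 0.176 (SE), adjusted p = 0.00893, edgeR), whereas Cd24a was higher (log2 fold change 0.81 ± 0.1001 (SE), adjusted p = 0.0076, edgeR). Of 7 LC markers tested, 2 were higher and 2 lower, beside 12.3% and 14.4% of all genes, with a median log2 fold change of -0.11, beside -0.00 over all genes. Epcam (log2 fold change -0.33 ± 0.101 (SE), adjusted p = 0.0522, edgeR) and Cdh1 (log2 fold change -0.00 ± 0.094 (SE), adjusted p = 0.995, edgeR) were not called, although Epcam was lower with the length trend removed (adjusted p = 0.0307, edgeR), with library totals (adjusted p = 0.0256, edgeR) and in DESeq2 (adjusted p = 0.00867). Of 15 genes of mature or migratory DCs, 8 were lower and 2 higher, beside 14.4% and 12.3% of all genes, with a median log2 fold change of -0.57. With the length trend removed 8 were lower and none higher, beside 6.30% and 6.20% of all genes. Cd83, a maturation marker, had 23.95 and 26.6 CPM in WT 1 and WT 2, against 70.1 and 67.4 CPM in the Control libraries (log2 fold change -1.34 ± 0.103 (SE), adjusted p = 0.0041, edgeR). Ccl22 (log2 fold change -1.32 ± 0.148 (SE), adjusted p = 0.00637, edgeR) and Ccr7 (log2 fold change -0.97 ± 0.184 (SE), adjusted p = 0.0157, edgeR) were lower as well. Of the 6 NF-κB genes, 4 were lower, beside 14.4% of all genes, at a median of -0.66. With the length trend removed 4 were lower again, beside 6.30% of all genes. Nfkb2 was among the lower genes (log2 fold change -0.97 ± 0.088 (SE), adjusted p = 0.00479, edgeR).

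Alveolar macrophage and eosinophil genes went the other way. Of 10 alveolar macrophage genes tested, 7 were higher in WT 1 and WT 2, beside 12.3% of all genes, at a median log2 fold change of 0.84. With the length trend removed 3 were higher, beside 6.20% of all genes. Car4, a carbonic anhydrase, had 211 and 299 CPM in WT 1 and WT 2, against 95.9 and 112 CPM in the Control libraries (log2 fold change 1.39 ± 0.186 (SE), adjusted p = 0.00847, edgeR). All 5 eosinophil genes tested were higher, beside 12.3% of all genes, at a median of 2.63. With the length trend removed 3 were higher, beside 6.20%. Only 1 of the 7 eosinophil genes listed was expressed in all 4 libraries. Ccr3 had 1.54 and 1.22 CPM in WT 1 and WT 2, against 0.0212 and 0.444 CPM in the Control libraries. It entered the test through WT 1 and WT 2 only, so the filter favoured this direction and the count is no independent support. Ribosomal protein genes were higher in 53 of 78 cases and lower in none, beside 12.3% and 14.4% of all genes. After the length trend was removed only 7 were higher and 3 lower, beside 6.20% and 6.30% of all genes. Their median exon length was 706.5 bases, against 2854 over all genes tested. The 25 genes highest per kb, with a median exon length of 1193 bases, gave 12 higher and none lower. With the trend removed they gave 4 higher and 1 lower, beside the same shares of all genes. Among 181 genes of the receptor lists, 31 were higher and 32 lower, and among 166 transcription factors 15 were higher and 27 lower. Both are to be read against the 12.3% higher and 14.4% lower over all genes tested.

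The factors at the centre of the study were steady to differing degrees. Rara (log2 fold change -0.04 ± 0.123 (SE), adjusted p = 0.815, edgeR) and Runx3 (log2 fold change -0.08 ± 0.091 (SE), adjusted p = 0.527, edgeR) were not called between the pairs. Cebpb was higher in WT 1 and WT 2 (log2 fold change 0.61 ± 0.089 (SE), adjusted p = 0.00918, edgeR). Rxra was lower (log2 fold change -0.40 ± 0.117 (SE), adjusted p = 0.0467, edgeR), but it was not called with the length trend removed (adjusted p = 0.314, edgeR) or without WT 1, Control 1 or Control 2 (adjusted p = 0.153, 0.138 and 0.184). Id2 (log2 fold change 0.33 ± 0.129 (SE), adjusted p = 0.1, edgeR) and Spi1 (log2 fold change 0.03 ± 0.107 (SE), adjusted p = 0.873, edgeR) were not called, nor were Irf4 (log2 fold change 0.06 ± 0.127 (SE), adjusted p = 0.727, edgeR) and Irf8 (log2 fold change 0.17 ± 0.221 (SE), adjusted p = 0.602, edgeR). Id2 was called higher without WT 2 (adjusted p = 0.0125, edgeR) and in DESeq2 (adjusted p = 0.0345). A p-value that misses the threshold does not show that the levels were equal.

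The genes with the largest differences, among those with at least 10 CPM in the higher pair and no overlap, were named by that rule. Ifi44l, an interferon-induced gene, was at 18.7 and 73.3 CPM in WT 1 and WT 2, while no read was counted in either Control library. Its mean in WT 1 and WT 2 was at least 1480-fold higher, taking 3 counts over the Control pair as the limit. Its neighbour in function Ifi44 had 36.3 and 139 CPM in WT 1 and WT 2, against 13.8 and 22.9 CPM in the Control libraries (log2 fold change 2.37 ± 0.598 (SE), adjusted p = 0.0318, edgeR), and was not called with the length trend removed (adjusted p = 0.0595, edgeR) or without Control 1 (adjusted p = 0.0605). WT 2 was well above WT 1 for both.

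The other genes of this rule that were higher in WT 1 and WT 2 were AA465934, Epx, Hgfac, Fcgr4, Fam43a, Ear2, Mmp8 and Ckb, with log2 fold changes of 2.38 to 3.73. Hgfac, a serine protease that activates hepatocyte growth factor, had 77.3 and 106 CPM in WT 1 and WT 2, against 16.6 and 12.03 CPM in the Control libraries (log2 fold change 2.78 ± 0.213 (SE), adjusted p = 0.0041, edgeR). Fcgr4, an activating Fc receptor, had 17.8 and 30.3 CPM, against 2.86 and 4.68 CPM (log2 fold change 2.78 ± 0.337 (SE), adjusted p = 0.00739, edgeR). Mmp8, the neutrophil collagenase, had 182 and 334 CPM, against 31.2 and 62.05 CPM (log2 fold change 2.57 ± 0.3998 (SE), adjusted p = 0.0101, edgeR), although Ngp, another neutrophil gene, was highest in WT 1 only, with 317 and 40.9 CPM, against 54.5 and 83.5 CPM. Of 14 neutrophil and granulocyte precursor markers tested, Mmp8 among them, 1 was higher and 5 lower, beside 12.3% and 14.4% of all genes. With the length trend removed, 1 was again higher and 5 lower, beside 6.20% and 6.30% of all genes. Ear2 is a ribonuclease gene with close copies, and its level is uncertain.

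Genes lower in WT 1 and WT 2 by the same rule included Inhba, Elane, Ppp1r12b, Wnk2, Zbed6, Cbl, Ccr9, Pdpr and Cd8b1, with log2 fold changes of -2.58 to -3.34. Inhba, the activin A subunit of the TGFβ family, had 2.503 and 5.51 CPM in WT 1 and WT 2, against 39.3 and 50.03 CPM in the Control libraries (log2 fold change -3.34 ± 0.346 (SE), adjusted p = 0.00593, edgeR). Cbl, a ubiquitin ligase of cytokine receptors, had 9.07 and 18.6 CPM, against 83.5 and 100.4 CPM (log2 fold change -2.61 ± 0.318 (SE), adjusted p = 0.00744, edgeR). Elane was not called with all 8 libraries in the fit (adjusted p = 0.0627, edgeR). Ccr9 and Cd8b1 were far higher in Control 2 than in Control 1. The 10 T cell markers include Cd8b1 (3.24 and 1.42 CPM in WT 1 and WT 2, against 7.94 and 21.0 CPM in the Control libraries). Since Cd8b1 was named by its fold, a sum over the list is no separate support. The summed CPM of the 10 T cell markers was 15.4 and 10.9 in WT 1 and WT 2, against 26.5 and 40.5 in the Control libraries. Of that list Cd3e had 0.436 and 0.0 CPM in WT 1 and WT 2, against 0.0 and 0.0 CPM in the Control libraries, and Cd3g 0.161 and 0.053 CPM, against 0.0 and 0.04 CPM.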

How the data were processed

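RNA of CD11c+ cells from BM cultures was sequenced as paired-end reads from stranded mRNA libraries. The authors aligned reads to mm10 with STAR and counted pairs per RefSeq gene with featureCounts, strand-specifically (code 2) and with a minimum mapping quality of 10. For neither tool was a version given in the sources used here. Raw counts per gene, not normalized, are the deposited values used. The 8 RPKM columns deposited beside them were not used. A further deposited table holds the authors' fold changes, p-values and FDR for their own comparisons, and none of it was used.

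Groups came from the column names and titles of the libraries. The members, gene lists and promoters were chosen with earlier results of these data known. CPM was computed over all gene counts, and CPM per kb over the deposited exon length. Features under 300 bases were left out of ranks. The pairs were compared with the quasi-likelihood test of edgeR 4.0.16 in R 4.3.3, with TMM scaling, on genes with 0.5 CPM in at least 2 libraries and not on chromosome X or Y, with Benjamini-Hochberg adjustment over all 11779 genes. On simulated data with known changes, this comparison recovered 42.7% of 1.5-fold and 94.7% of 2-fold changes, and called 0.0806% of unchanged genes. The simulated counts had the same dispersion in every gene and no exon-length trend, so these rates may not hold for the real libraries. Tables were handled with Python 3.11.15 and pandas 2.3.3, and figures drawn with matplotlib 3.10.9. DESeq2 1.42.0, other scalings, filters and thresholds, all 8 libraries, each library left out and an exon-length trend were tried as alternatives.

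Named by rule were the 25 genes highest per kb, up to 4 members highest per kb in each list, silent members of lists mostly silent, 10 genes per direction with the largest fold between the pairs (at least 10 CPM in the higher pair, no overlap), and Rara, Runx3, Cebpb, Cd207 and Epcam. Other list members named were chosen after their values were seen. A few list members are not reported here.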

Additional observations from a re-analysis of the deposited data

Results flagged for a closer look

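Over the 85 genes whose CPM is given for each library and reached 0.5 CPM in at least 1, 4 had a single library far from the other 3, by the gap to the nearest library over the range of all 4. Chance gives about 1 such gene in 20. Mgl2, a lectin of cDC2 and macrophages, had 78.7 and 74.7 CPM in WT 1 and WT 2, against 241 CPM in Control 1 and 101 CPM in Control 2. Ccr6, the receptor of CCL20, reached 3.22 CPM in WT 2, while WT 1 had 0.643 CPM, against 0.593 and 0.787 CPM in the Control libraries. Ngp, a granule protein of neutrophils, reached 317 CPM in WT 1, while WT 2 had 40.9 CPM, against 54.5 and 83.5 CPM in the Control libraries. Egr1, an immediate early gene, had 129.5 and 90.4 CPM in WT 1 and WT 2, against 134 CPM in Control 1 and 464 CPM in Control 2.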

How the results depend on the processing

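The 3136 genes called between the pairs became 1472 with the exon-length trend removed, 502 at an adjusted p under 0.01 and 689 at 2-fold or more, and 1182 to 3598 when a library was left out, the lowest counts being 1392 without Control 1 and 1182 without Control 2. DESeq2 called 3591, its size factors in edgeR 3085, library totals 3449 (963 higher and 2486 lower, against 1444 and 1692), no filter 3461, a filter of 5 CPM 2831 and all 8 libraries 2611. Of the named folds, all reversals were of genes not called. Cdh1 had log2 fold changes of 0.00574 with DESeq2 size factors, 0.00573 with DESeq2, 0.0108 with the 5 CPM filter and 0.17 with the length trend removed, and -0.0179 to 0.0240 with a library left out. Rara had 0.10 and Runx3 0.0414 with the length trend removed, and Rara -0.20 to 0.12 with a library left out. Spi1 had -0.0754 with library totals, -0.22 with the length trend removed, and -0.0807 to 0.15 with a library left out. Irf4 had -0.0384 with library totals and -0.0911 to 0.23 with a library left out, and Irf8 -0.14 to 0.54. The cause was not tested. Expressed genes numbered 12395 at 0.1 CPM, 10760.0 at 1 CPM and 9330.0 at 5 CPM, against 11298, and the first 50% of counts took 293 genes in TPM, against 772. No paired analysis was possible because the replicate numbers join WT libraries to Rara-deficient or RA-treated ones and not the WT pairs to each other. Genes under 3 counts per library, and genes with near-identical copies, are beyond what these counts resolve.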
